A study of Mus musculus with 2 samples.

Results

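The genes described here are the neighbours of Padi4 on mouse chromosome 4. They were chosen by position alone, as the gene names whose array probes map between 130000000 and 150000000 of the mouse build mm8, without the Padi genes themselves. The array held 364 such gene names, on 528 probes, out of 27743 gene names in all. Of the 364, 273 were well above background on both arrays and are called measured below. Another 7 passed that limit on the PAD4-deficient array alone, 8 on the WT array alone and 76 on neither.

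PAD4 is the enzyme encoded by Padi4, and it converts arginine side chains of histones and other proteins to citrulline. The other peptidylarginine deiminases, Padi1, Padi2, Padi3 and Padi6, lie beside it in the same gene cluster. When a gene is inactivated by targeting in embryonic stem cells, the DNA beside it stays linked to the altered allele through breeding, so that neighbouring genes can differ in sequence or in regulation between mutant and WT animals. The genes of a neighbourhood also need not share a function, and those of this stretch include red cell antigens, complement components, kinesins, ubiquitin ligase subunits and mitochondrial enzymes.

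The 2 groups were PAD4-deficient and WT LSK cells of C57BL/6 mice, with 1 array each. LSK cells are the fraction of bone marrow without lineage markers but with Sca-1 and c-Kit on the surface, in which haematopoietic stem cells and multipotent progenitors are found. The cells were sorted by flow cytometry, and their RNA was amplified, labelled with Cy3 and hybridised to a 1-colour Agilent array. The sources used here do not give the design of the mutant allele, the strain of the stem cells used for targeting, any backcrossing, or the age, sex and number of the mice.

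With 1 array per group, no difference below has a replicate check and no test between the groups was possible. Each value is the processed signal of a probe on the array's linear scale, and each difference is PAD4-deficient minus WT on the log2 scale, after each array was scaled to its own 75th percentile. The error given with a difference is the scanner's error of the spots, propagated over both arrays, and it does not cover variation between mice, sorts or labellings. The scanner software called 410 of the 528 probes well above background in PAD4-deficient cells and 409 in WT cells. The lowest signal called well above background was 18.5 on the PAD4-deficient array and 17.7 on the WT array, so the dim signals below lie close to the limit of measurement.

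Padi4 itself had a signal of 2670 on the PAD4-deficient array and 12879 on the WT array at its brightest probe (chromosome 4, 140017954 to 140018013, mm8), a difference of -2.22 with an error of 0.20. That probe is the point from which distances are taken, and below and above Padi4 stand for lower and higher coordinates. The arrays also differed in sex-linked transcripts. Xist, the RNA that silences an X chromosome in females, reached 16255 on the PAD4-deficient array and 5.38 on the WT array, where it was not well above background. The Y-linked Ddx3y read 1297 on the PAD4-deficient array and 3455 on the WT array, a difference of -1.36. Eif2s3y read 1076 and 2611 in the same order (-1.23), and Kdm5d 106 and 248 (-1.17). These Y-linked genes were well above background on both arrays, so the PAD4-deficient array held Xist as well as Y-linked RNA. Uty was well above background on the WT array only. A difference due to the genotype, to the sex of the animals or to the individual mice cannot be told apart with these arrays.

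The 14 listed genes of the LSK sort and of stem cells were all measured, with a median difference of 0.04 and 1 of them 1.5-fold lower. Among markers of other cells, the median difference was 0.30 for 12 of 15 erythroid genes, 0.75 for 13 of 15 dendritic cell genes, 0.55 for 13 of 15 B and plasma cell genes, 0.54 for 13 of 15 neutrophil genes and 0.54 for all 13 megakaryocyte genes. It was 0.09 for 10 of 15 macrophage genes and -0.31 for 10 of 16 T and NK cell genes. For 8 of 16 stromal and endothelial genes it was -0.12. These totals count listed names: Elane also stands as Ela2 among the neutrophil names, and Adgre1 as Emr1 among the macrophage names. In RNA from a sorted population, a larger share of such cells and more of the RNA in each cell cannot be told apart.

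The genes around the Padi cluster did not shift together in either direction. Their median difference was 0.00, with the middle of the distribution between -0.16 and 0.14 from the lower to the upper quartile. Of the 273 measured genes, 138 lay above 0 and 135 below it. The 16812 measured genes outside the window had a median of 0.02, and 55.1% of them lay above 0. Outside the window stands for all other gene names, the Padi genes among them, and Padi4 counts there as 2-fold lower. The typical size of a difference, taken as the median without its sign, was 0.15 in the window and 0.14 outside it. The difference was no larger than its own scanner error in 185 window genes (67.8%), against 69.9% of the genes outside.

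Of the 273 measured genes, 4 were higher in PAD4-deficient cells by 1.5-fold or more (1.47%), where 2.88% of the measured genes outside the window were. A further 12 were lower by that much (4.40%), where 1.84% of the genes outside were. At 2-fold, 1 gene was higher, against a background of 1.02%, and 4 were lower (1.47%), against 0.458%. In both directions together, 16 genes passed 1.5-fold (5.86%) where 4.72% of the genes outside did, and 5 passed 2-fold (1.83%) where 1.48% did. The shares were not tested, since the genes share 1 pair of arrays, and the count of lower genes depended on the background correction. With normexp and an offset of 50, which adds a constant to each signal and shrinks the differences of dim spots, 1 gene was 1.5-fold higher and 4 were 1.5-fold lower, and with no offset 3 were higher and 9 lower. The counts among the 16812 measured genes outside the window fell as well. There 485 were higher and 309 lower as reported, 203 and 128 with the offset, and 371 and 217 with none.

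**Figure D1:**
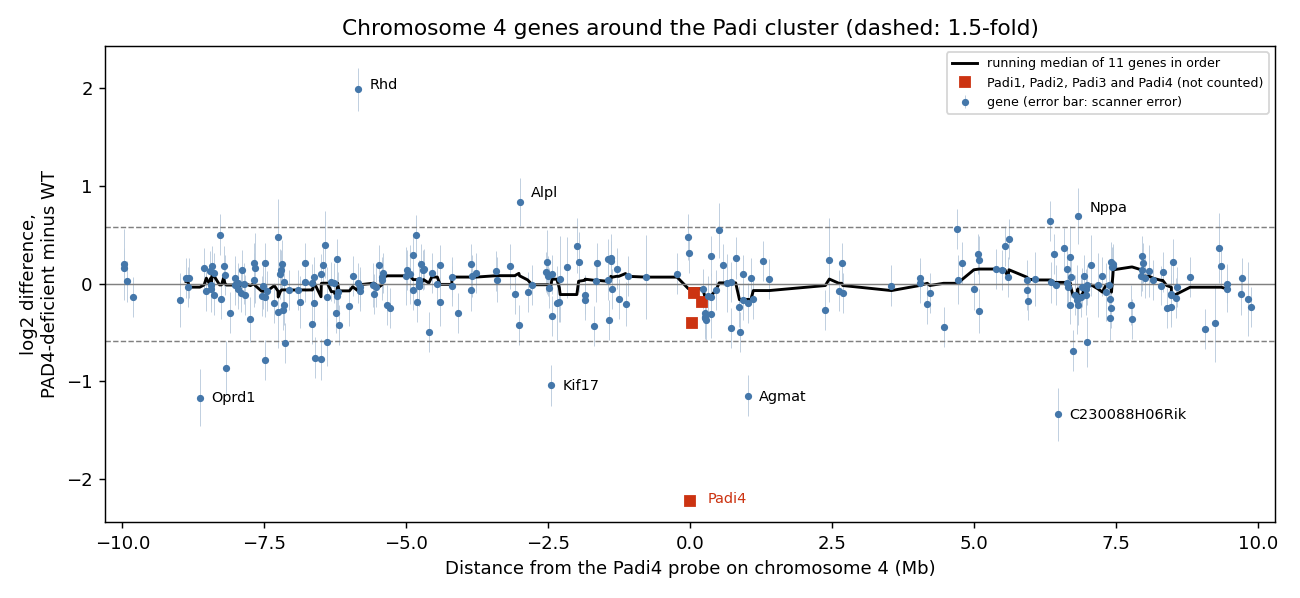
Log2 difference (PAD4-deficient minus WT) of each measured gene against the distance of its probe from Padi4 in megabases, with lower coordinates to the left. Points are genes with their scanner error, the solid line is a running median over neighbouring genes and dashed lines mark 1.5-fold. Squares are Padi1, Padi2, Padi3 and Padi4, which were not counted as window genes. Padi6, not well above background on the WT array, is not drawn. The 273 genes scatter around a median of 0.00. Of the 16 genes past 1.5-fold, 13 lie more than 5 Mb from Padi4, where 166 of the 273 measured genes lie.

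Genes close to Padi4 did not stand out at the folds counted. Within 1 Mb, 0 of 24 measured genes passed 1.5-fold, where 4.72% of the measured genes outside the window did. Among 24 genes, a count of 0 lies near that share and does not set the near genes apart. The median difference of the 24 was -0.06. Between 1 and 2 Mb, 23 genes had a median of 0.03 and 1 of them was lower (4.35%). Between 2 and 5 Mb, 60 genes had a median of 0.04, with 1 higher and 1 lower (3.33% together). Between 5 and 10 Mb, 166 genes had a median of -0.01, with 3 higher and 10 lower (7.83% together). Of the 16 genes past 1.5-fold, 13 lay beyond 5 Mb, where 166 of the 273 measured genes lie, and 1 within 2 Mb. Below Padi4 lay 10 of the 16 and 155 of the 273.

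The sizes of the differences followed another pattern. Their median without sign was 0.25 within 1 Mb, 0.20 between 1 and 2 Mb, 0.11 between 2 and 5 Mb and 0.14 between 5 and 10 Mb. Within 1 Mb, 11 of 24 genes (45.8%) had a difference no larger than its scanner error, and 22 of 24 (91.7%) lay within 2 errors. Over all 273 genes, distance and size were almost unrelated as a description (Pearson r -0.06, Spearman rank correlation -0.10), where the points share the same pair of arrays. Dimmer genes had larger differences (mean log2 signal against size, Pearson r -0.28, Spearman -0.28). The nearest genes were also dimmer, with a median signal of 404 on the PAD4-deficient array and 436 on the WT array, against 1146 on the PAD4-deficient array and 1194 on the WT array for genes between 5 and 10 Mb. Among genes with a mean signal of at least 200 the median size was 0.19 within 1 Mb and 0.13 beyond 5 Mb.

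**Figure D2:**
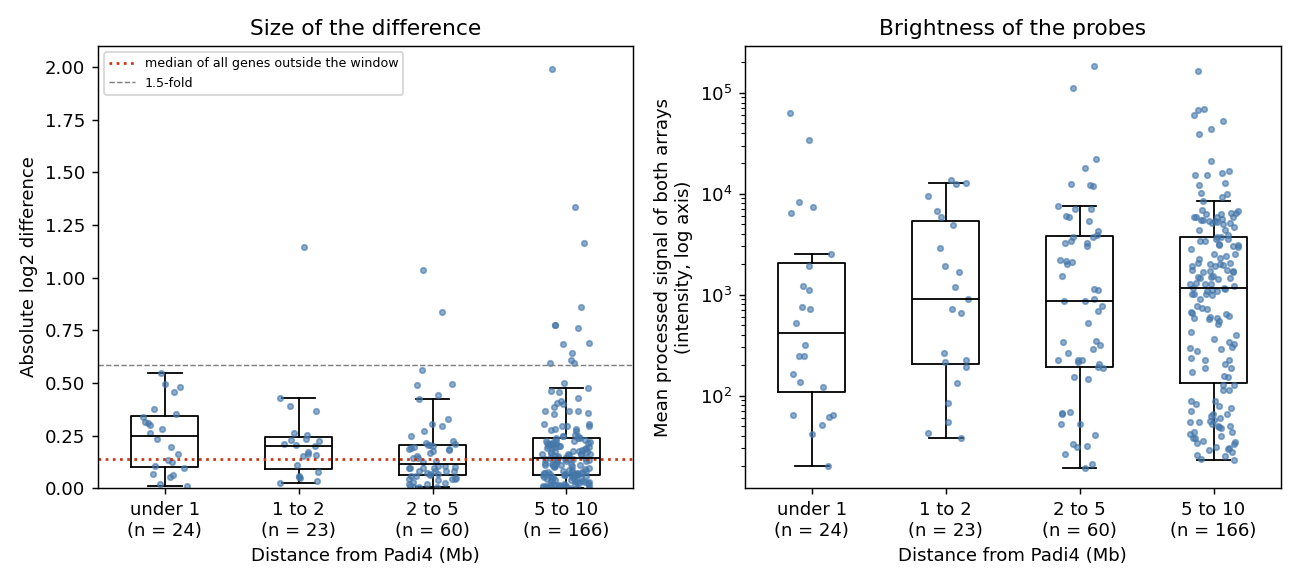
Size of the log2 difference, without its sign, for measured genes in bins of distance from Padi4 in megabases (left), with a dotted line at the median of the genes outside the window and a dashed line at 1.5-fold, and mean processed signal of both arrays on a log axis (right). Boxes span the quartiles with the median inside, and points are genes. The medians are 0.25, 0.20, 0.11 and 0.14 from the nearest to the farthest bin, against 0.14 outside.

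The edges of the window were set by position, and the nearest genes measured on both arrays differed there by less than 1.5-fold. At the lower edge, the first measured gene inside, the transcript TC1675045, differed by 0.20 (error 0.36), and Zcchc17 just outside differed by 0.13 (error 0.20). At the upper edge, Vamp3, a vesicle fusion protein, differed by -0.24 inside, and a Camta1 probe just outside differed by 0.14. On the rest of chromosome 4, the 682 measured genes below the window had a median of 0.04, with 13 higher and 14 lower at 1.5-fold. The 81 genes above it had a median of -0.05, with 1 higher and 1 lower.

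The genes next to the cluster were read one by one. On the lower side, 4 genes lay within 1 Mb, and all 4 values were above 0. Rcc2, a regulator of chromosome condensation and mitosis whose probe is 0.023 Mb from that of Padi4 (chromosome 4, 139995168 to 139995227), had signals of 69201 on the PAD4-deficient array and 57631 on the WT array, a difference of 0.31 with an error of 0.20. Its second probe gave 12749 on the PAD4-deficient array and 13893 on the WT array, a difference of -0.07, so the probes of Rcc2 lay on opposite sides of 0. The transcript TC1637218 had 69.6 on the PAD4-deficient array and 51.7 on the WT array, a difference of 0.48 with an error of 0.24. Arhgef10l, a guanine nucleotide exchange factor, differed by 0.10, and Klhdc7a, which sits near the detection limit, by 0.07.

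On the upper side, the first 8 measured genes past the cluster all had values below 0, the longest run of neighbours with 1 sign in the window. They span 0.221 to 0.365 Mb from Padi4 and had a median of -0.30. Sdhb, the iron-sulphur subunit of succinate dehydrogenase, had 7157 on the PAD4-deficient array and 7680 on the WT array, a difference of -0.05, well inside its error of 0.20. Atp13a2, a lysosomal transporter of polyamines, had 30252 on the PAD4-deficient array and 38494 on the WT array, a difference of -0.30 (error 0.20). Crocc, which encodes rootletin of the ciliary rootlet, had 2157 on the PAD4-deficient array and 2898 on the WT array, a difference of -0.38 (error 0.20). None of these reached 1.5-fold.

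The run also held Mfap2, a protein of extracellular microfibrils, which had 212 on the PAD4-deficient array and 277 on the WT array, a difference of -0.34, and -0.50 at the second. Necap2, a factor of clathrin-mediated endocytosis, differed by -0.12, with -0.37 at its second probe. The remaining members were the transcripts ENSMUST00000037055 (-0.35) and AK032937 (-0.31) and the testis gene Spata21 (-0.13). All 8 values stayed below 0 under each background correction and scaling tried, with medians between -0.36 and -0.19, and under the filter on mean signal the 5 that remained were below 0. The run was picked out after its values were seen. Over all neighbouring pairs of the window, the differences were unrelated as a description (Pearson r -0.01, Spearman 0.03, 272 pairs), where pairs outside gave 0.12 by both measures (16634 pairs). The next longest runs had 7 genes each and lay farther away, at 5.09 to 5.93 Mb and 7.95 to 8.16 Mb above Padi4, both with values above 0.

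Beyond the run the values changed sign from gene to gene. Zbtb17, which encodes Miz-1, a DNA-binding partner of Myc, had 5343 on the PAD4-deficient array and 7593 on the WT array, a difference of -0.46 with an error of 0.20. Its neighbour Spen, a transcriptional corepressor that binds Xist RNA, had 1207 on the PAD4-deficient array and 1232 on the WT array, a difference of 0.02. Plekhm2, an adaptor between lysosomes and kinesin, had 591 on the PAD4-deficient array and 863 on the WT array, a difference of -0.50 (error 0.20). Values on the other side of 0 came from Arhgef19, another guanine nucleotide exchange factor, with 59.9 on the PAD4-deficient array and 42.4 on the WT array, a difference of 0.55 (error 0.28). Szrd1 differed by 0.28, B330016D10Rik by 0.26 and the ephrin receptor Epha2 by 0.19.

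Further genes of this stretch had these values. Ddi2, a protease that works with the proteasome, differed by 0.09 and the ubiquitin ligase subunit Fbxo42 by -0.06. Tmem82 differed by -0.24 and Rsc1a1, a regulator of solute carriers, by -0.16. In all, 20 genes lay within 1 Mb above Padi4, 13 of them below 0, with a median of -0.13, and the 4 genes on the lower side had a median of 0.21. These bins were not tested against each other. The Padi genes between them are not counted here. Padi1 differed by -0.10 and Padi2 by -0.19, each within its error, and Padi3, near the detection limit with 25.3 on the PAD4-deficient array and 34.7 on the WT array, by -0.41 (error 0.33). Padi6, by its single probe, read 149 on the PAD4-deficient array and 18.7 on the WT array, where it was not well above background.

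**Figure D3:**
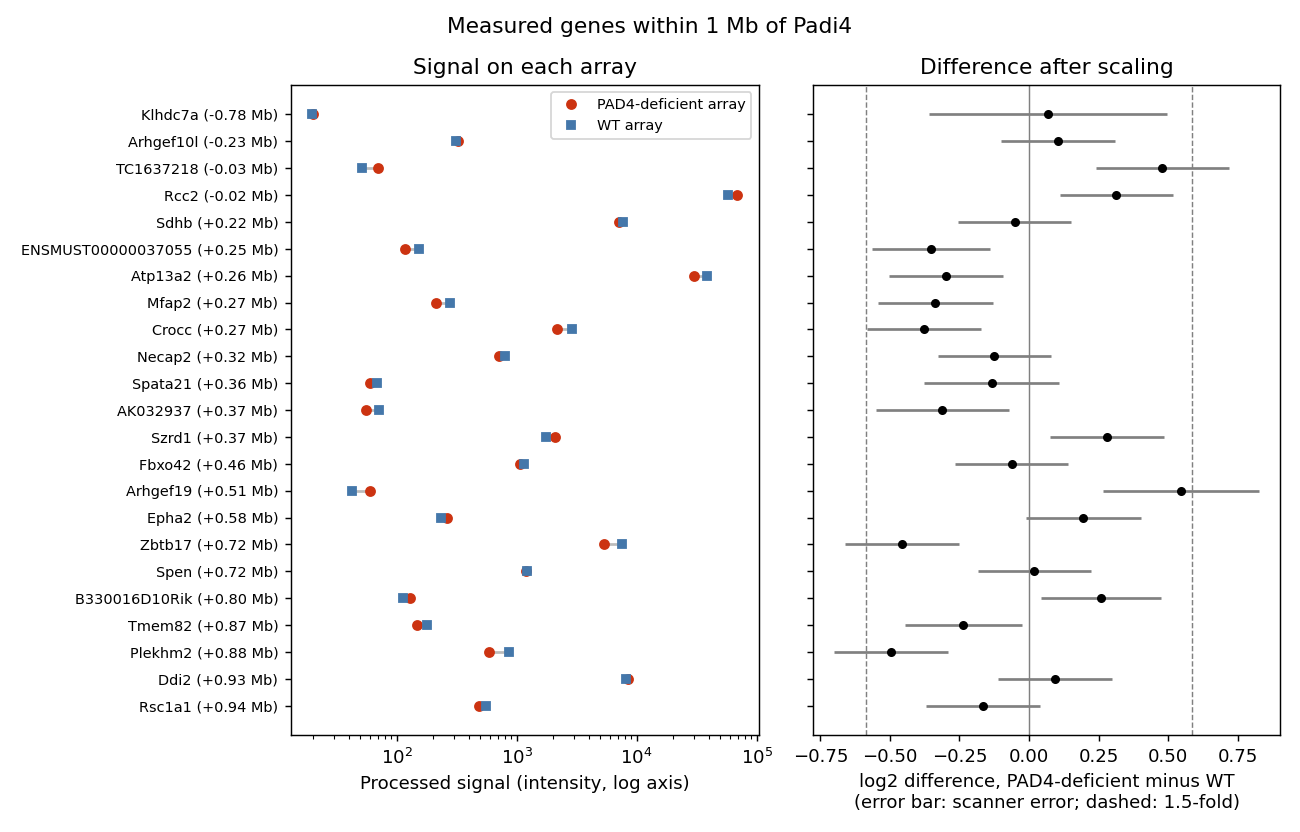
Processed signal on each array (left, log axis) and log2 difference, PAD4-deficient minus WT, with bars for 1 scanner error on each side (right), for 23 of the 24 measured genes within 1 Mb of Padi4, in chromosomal order. All 4 genes below Padi4 are above 0, the 8 from Sdhb to AK032937 are below 0, and none reaches 1.5-fold. Of the measured genes outside the window, 4.72% did.

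Of the genes measured on both arrays, 5 differed by 2-fold or more, and each was in the dimmest of 3 equal parts of all measured genes. Rhd, which encodes the Rh antigen of the red cell membrane, had the largest of these differences and was the only one of the 5 that was higher. Its probe (chromosome 4, 134168179 to 134168238) lies 5.85 Mb below Padi4 and read 241 on the PAD4-deficient array and 62.8 on the WT array, a difference of 1.99 with an error of 0.22. With normexp and an offset of 50, the setting meant by normexp for single genes below, the difference was 1.35. Rhd is expressed in red cell precursors, and erythroid markers differed on the same arrays. Of the 12 measured markers, 5 were at least 1.5-fold higher and 0 lower, among them Ermap (2.52), Eraf (1.80), Car1 (1.73) and Klf1 (1.63), while Hba-a1 (-0.22) and Alas2 (-0.47) lay below 0. Their summed signal was 45910 on the PAD4-deficient array and 42290 on the WT array. The defining marker Spna1 was not well above background on either array, and Rhag, whose product carries Rhd to the membrane, was so only in PAD4-deficient cells, at 20.9. Their part in the difference of Rhd was not tested.

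The 4 genes that were 2-fold lower were C230088H06Rik, Oprd1, Agmat and Kif17. Agmat, named for the cleavage of agmatine to putrescine and urea, is the nearest of them, 1.01 Mb above Padi4 (chromosome 4, 141031252 to 141031311). It read 132 on the PAD4-deficient array and 303 on the WT array, a difference of -1.15 with an error of 0.21, and -0.81 with normexp. Kif17, a kinesin motor of dendrites and cilia, lies 2.45 Mb below Padi4 and read 143 on the PAD4-deficient array and 304 on the WT array, a difference of -1.04 (error 0.21), or -0.73 with normexp. Its second probe read 109 on the PAD4-deficient array and 226 on the WT array, a difference of -1.0, and the third gave -0.38, so all 3 probes lay below 0 but the dimmest did not reach 1.5-fold.

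Oprd1, the delta opioid receptor, lies 8.63 Mb below Padi4. It read 30.1 on the PAD4-deficient array and 70.0 on the WT array, a difference of -1.17 (error 0.29), but -0.41 with normexp, which ends its 1.5-fold call. The cDNA C230088H06Rik, 6.47 Mb above Padi4, read 31.7 on the PAD4-deficient array and 82.9 on the WT array, a difference of -1.34 (error 0.27), and -0.59 with normexp. With normexp and an offset of 50, 0 of the 4 kept a 2-fold difference, and with no offset 2 did.

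The promoters of the genes with the largest differences are shown because these were the 2-fold differences among genes measured on both arrays, and their sequences can be set side by side. Of the 5 genes, 4 had a promoter in the RefSeq table of build GRCm38.p6, each running from 250 bases before to 50 after the start. They are chr4:134864286-134864585 on the plus strand for Rhd, chr4:138262001-138262300 on the plus strand for Kif17, chr4:141746425-141746724 on the plus strand for Agmat, where it is the first of 2 listed starts, and chr4:132144437-132144736 on the minus strand for Oprd1. Capitals mark a GATA motif, the letters bound by erythroid GATA factors, searched on both strands as GATAA and GATAG after an A or a T, and the E-box CACGTG, the letters bound by Myc and its partners.
Rhd: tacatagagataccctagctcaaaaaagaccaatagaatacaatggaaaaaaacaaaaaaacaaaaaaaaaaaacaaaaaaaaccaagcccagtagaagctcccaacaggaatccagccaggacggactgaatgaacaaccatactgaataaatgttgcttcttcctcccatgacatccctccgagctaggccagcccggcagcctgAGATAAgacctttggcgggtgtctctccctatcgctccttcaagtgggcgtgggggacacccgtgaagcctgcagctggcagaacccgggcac
Kif17: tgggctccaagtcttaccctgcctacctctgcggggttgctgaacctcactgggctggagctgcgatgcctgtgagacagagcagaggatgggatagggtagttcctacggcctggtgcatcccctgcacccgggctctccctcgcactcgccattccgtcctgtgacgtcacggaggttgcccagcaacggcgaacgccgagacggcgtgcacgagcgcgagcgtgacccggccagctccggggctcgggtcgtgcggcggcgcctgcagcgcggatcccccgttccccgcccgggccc
Agmat: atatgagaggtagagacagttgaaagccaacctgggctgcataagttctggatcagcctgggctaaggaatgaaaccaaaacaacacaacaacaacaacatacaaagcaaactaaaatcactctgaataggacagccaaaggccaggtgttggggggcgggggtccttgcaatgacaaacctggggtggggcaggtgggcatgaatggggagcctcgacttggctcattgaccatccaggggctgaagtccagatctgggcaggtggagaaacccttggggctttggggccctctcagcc
Oprd1: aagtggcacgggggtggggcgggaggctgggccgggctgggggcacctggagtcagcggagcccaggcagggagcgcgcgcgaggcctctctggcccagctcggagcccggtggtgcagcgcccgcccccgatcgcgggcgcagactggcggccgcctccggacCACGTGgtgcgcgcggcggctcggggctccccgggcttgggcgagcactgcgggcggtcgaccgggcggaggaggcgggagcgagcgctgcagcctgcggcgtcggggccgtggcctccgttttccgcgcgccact

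The 4 promoters differ in composition. Those of Kif17 and Oprd1 are rich in CpG, with 31 and 43 CpG and 69.3% and 79.3% G and C, while that of Rhd has 8 CpG and 48.3% and that of Agmat 2 CpG and 53.3%. The Rhd promoter holds AGATAA, 43 bases before the start. A GATA motif on either strand was found in 9778 of 32851 promoters of the table (29.8%) and in 37 of the 189 measured window genes with a promoter (19.6%). The Oprd1 promoter holds CACGTG, 86 bases before the start, and that motif was found in 7.15% of all promoters and in 20 of the 189 (10.6%). CACCC on either strand, the letters bound by Klf1, was also searched. It occurs in all 4 promoters and in 57.5% of the table, and in 61.9% of the 189. Such matches describe letters in this window, and the motifs were chosen after the values were seen.

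Of the other genes past 1.5-fold, 3 were higher. Alpl, tissue-nonspecific alkaline phosphatase (listed on the array as Akp2), 3.0 Mb below Padi4, read 82.3 on the PAD4-deficient array and 47.7 on the WT array, a difference of 0.84 (error 0.24), or 0.46 with normexp. It is itself 1 of the 8 measured stromal and endothelial markers, of which 1 was higher and 2 lower at 1.5-fold. Their summed signal was 3724 on the PAD4-deficient array and 4539 on the WT array, and Col1a1, Col3a1, Lepr, Pdgfra, Cdh5, Dcn and Pdpn were not well above background on either. Nppa, the precursor of atrial natriuretic peptide, read 53.4 on the PAD4-deficient array and 34.5 on the WT array, a difference of 0.69 (error 0.29), or 0.29 with normexp. The zinc finger gene Zfp982 read 657 on the PAD4-deficient array and 435 on the WT array, a difference of 0.64 (error 0.20), but its second probe gave -0.22.

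The remaining 8 lower genes lay 6.39 Mb or more from Padi4, on both sides. Sytl1, a synaptotagmin-like protein of Rab27-dependent vesicle transport, was the brightest of them, at 1211 on the PAD4-deficient array and 2148 on the WT array, a difference of -0.78 (error 0.20) that was -0.74 with normexp. Zdhhc18, a palmitoyltransferase, read 526 on the PAD4-deficient array and 831 on the WT array, a difference of -0.61, or -0.57 with normexp. Ptafr, the receptor of platelet-activating factor, differed by -0.86 at its brighter probe, which read 33.6 on the PAD4-deficient array and 63.1 on the WT array, and by 0.32 at its second. The other 5 were Grrp1 (-0.77), the centrosome protein Cep85 (-0.76), the collagen lysyl hydroxylase Plod1 (-0.68), the ubiquitin ligase subunit Fbxo44 (-0.60) and the glycosyltransferase Extl1 (-0.59).

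These calls rested mainly on dim spots. Of the 16 genes, 13 had signals under 350 on both arrays, a limit at which all measured genes were not counted. Of the same 16, 12 had 1 measured probe, and 0 of the 4 with more had every probe past 1.5-fold. Single probes were common in the whole window, where 93 of the 273 measured genes had 2 or more. Of those 93, 4.30% passed 1.5-fold, against 5.86% of all 273. When measured genes were split into 3 equal parts by mean signal, a split made after the values were seen, 12 of 82 genes in the dimmest part of the window passed 1.5-fold (14.6%), against 9.96% of such genes outside. In the middle part 4 of 85 did (4.71%), against 3.48% outside. In the brightest part 0 of 106 did, against 0.716% outside. With normexp and an offset of 50, 5 of the 16 stayed past 1.5-fold, namely Rhd, C230088H06Rik, Agmat, Kif17 and Sytl1, and with no offset 12 of the 16 did.

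Grouped by function, no list of window genes moved as a whole past 1.5-fold. The lists held 152 of the measured genes, and medians are read against 0.02 for all measured genes outside the window. In chromatin and transcription, 19 of 22 listed genes were measured, with a median of 0.00 and 0 calls. The remodelling subunit Arid1a had 8935 on the PAD4-deficient array and 9664 on the WT array, a difference of -0.06, the nucleosome-binding protein Hmgn2 differed by 0.01 and the histone demethylase Kdm1a by 0.07. In cell cycle, DNA repair and cell death, 17 of 17 were measured, with a median of 0.01 and Cep85 as the only call. The tubulin-binding protein Stmn1 differed by 0.01, the dynein-associated protein Nudc by 0.14 and the cell cycle factor E2f2 by 0.11.

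In RNA processing, translation and ribosome, 17 of 18 genes were measured, 12 of them above 0, with a median of 0.12 and 0 calls. Rpl11, a ribosomal protein, had 190116 on the PAD4-deficient array and 178062 on the WT array, a difference of 0.14, and the RNA-binding protein Tardbp differed by 0.20, with 0.31 and 0.72 at its other probes. In mitochondria and metabolism, 27 of 31 were measured, with a median of -0.02 and 3 calls, Alpl, Agmat and Plod1. The ATPase inhibitor Atpif1 differed by 0.18 and the redox protein Park7 by 0.06. The list of genes of other tissues had 9 of 22 measured, 7 of them above 0, with a median of 0.10 and Nppa as the only call.

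In protein turnover and vesicle transport, 24 of 24 genes were measured, 18 of them below 0, with a median of -0.11 and Fbxo44 as the only call. Atp13a2 (-0.30) and Plekhm2 (-0.50) of the near stretch belong to it, as do Man1c1, a Golgi mannosidase, which had 971 on the PAD4-deficient array and 1350 on the WT array, a difference of -0.43, and the ubiquitin ligase Ubr4 (-0.16). In signalling and cytoskeleton, 24 of 30 were measured, 16 below 0, with a median of -0.11 and Oprd1 and Sytl1 as calls. Among its brightest members, the small GTPase Cdc42 differed by 0.13 and the actin regulator Wasf2 by -0.13. Over their probes, Cdc42 ran from -0.33 to 0.15 and Wasf2 from -0.15 to -0.11. Within 2 scanner errors lay 21 of 24 values in each list (87.5%), against 89.7% of the window genes and 92.2% of the genes outside.

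In blood and immune cells, 18 of 24 genes were measured, 9 above and 9 below 0, with a median of -0.03. Rhd and Ptafr were the only calls. Id3, an inhibitor of basic helix-loop-helix factors, had 900 on the PAD4-deficient array and 1309 on the WT array, a difference of -0.49 (error 0.20). Tnfrsf1b, a receptor of tumour necrosis factor, had 643 on the PAD4-deficient array and 904 on the WT array, a difference of -0.44, and -0.13 at the second probe. The cannabinoid receptor Cnr2 had 250.3 on the PAD4-deficient array and 184 on the WT array, a difference of 0.49, and 0.60 at the second probe. The transcription factor Runx3 differed by -0.11, the glycoprotein Cd52 by 0.00 and the lysosomal protein Laptm5 by -0.14.

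The chains of complement C1q, made by macrophages, lie side by side in the window. C1qa had 146 on the PAD4-deficient array and 143 on the WT array, a difference of 0.08, C1qb differed by -0.07 and C1qc by 0.20, each within its error of 0.21. Of the 10 measured macrophage markers, which include these 3 genes, 7 were above 0 and 0 passed 1.5-fold, and their summed signal was 2510 on the PAD4-deficient array and 2417 on the WT array. Timd4 was not well above background on either array, while Vsig4, Siglec1 and Mertk were, but only in PAD4-deficient cells. Vsig4 read 261 on the PAD4-deficient array and 14.6 on the WT array, Siglec1 at most 31.5 and 17.1, and Mertk 27.8 and 19.2. These genes are outside the count and the sum of the measured markers.

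**Figure D4:**
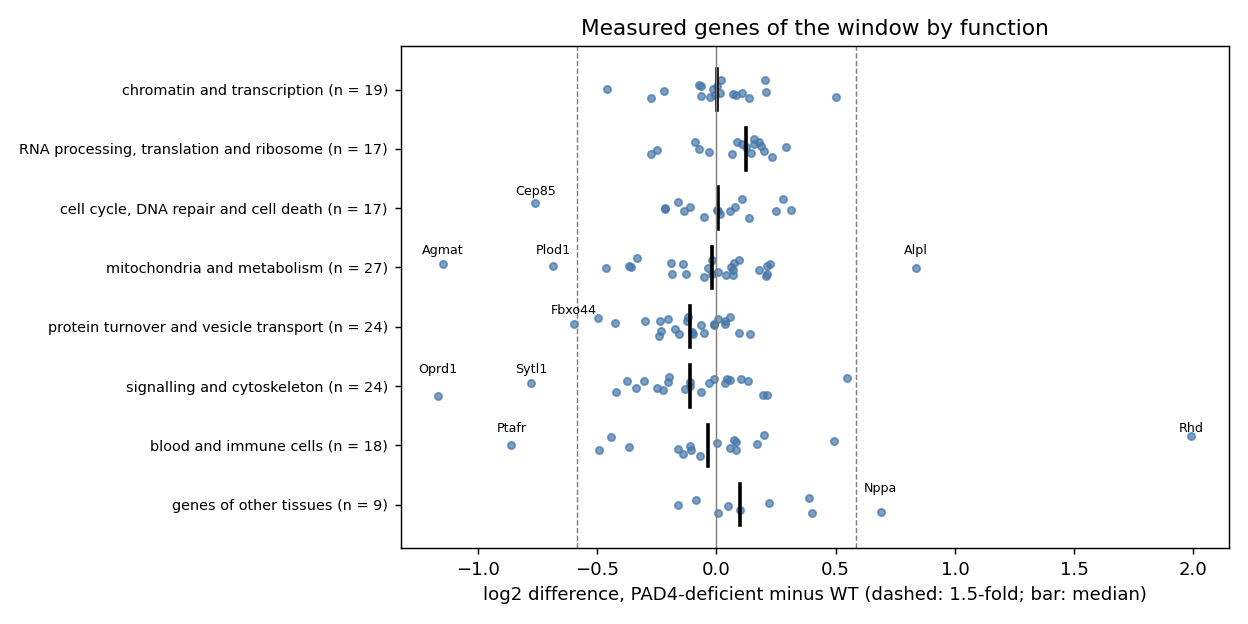
Log2 difference (PAD4-deficient minus WT) of the measured window genes in each function list, 1 point per gene, with the list's median marked. List medians lie between -0.11 and 0.12, and Rhd in the list of blood and immune cells is the point farthest from 0.

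Genes detected on 1 array only were about as frequent as elsewhere. On the PAD4-deficient array only there were 7 of 364 (1.92%), against 2.29% of 27383 gene names outside the window, and on the WT array only 8 (2.20%), against 1.87%. Such genes have a bound in place of a difference: the bright value was set against the dim probe's own value or, if that was lower, the lowest value well above background on the dim array. A Camta1 probe, for a calmodulin-binding transcription activator, read 53.3 on the PAD4-deficient array and 3.54 on the WT array, at least 3.12-fold higher, but another Camta1 probe outside the window read 1362 on the PAD4-deficient array and 1283 on the WT array. Ncmap was at least 1.76-fold higher, Pramel29 1.54-fold, TC1660271 1.47-fold and Cplane2 1.40-fold. Detected on the WT array only were 1700012P22Rik, lower by at least 1.77-fold in PAD4-deficient cells, the ephrin receptor Epha8 (1.67-fold), the serotonin receptor Htr1d (1.20-fold), NAP123204-1 (1.18-fold) and Slc25a34 (1.18-fold).

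Different probes of a gene gave a further view of how far single values can be read. Of the window genes, 93 had 2 or more measured probes, and in 56 of them (60.2%) all probes lay on the same side of 0, against 59.2% of 5763 such genes outside. The median range between the probes of a gene was 0.16 in the window and 0.18 outside. The brightest and second probe correlated with r 0.34 in the window and 0.46 outside, as a description over genes that share the same arrays. The widest range belonged to Kazn, a protein of cell adhesion, whose brightest probe read 224 on both arrays and whose second read 26.9 on the PAD4-deficient array and 89.3 on the WT array, a difference of -1.68. The third probe gave 0.08. Ptafr, Zfp982, Kif17 and Dffa, an inhibitor of a DNase of apoptosis, followed, with values of 0.08, -0.13 and -0.48 at the 3 probes of Dffa.

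**Figure D5:**
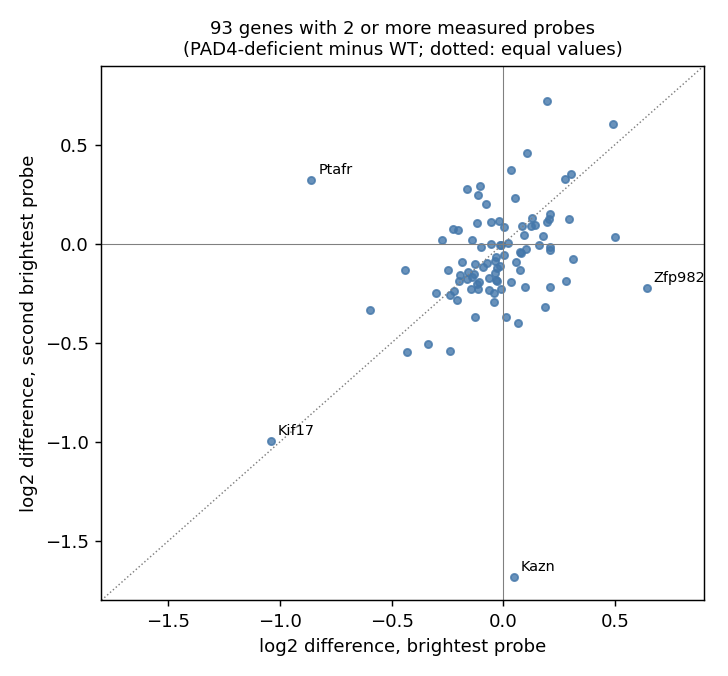
Log2 difference (PAD4-deficient minus WT) at the second brightest measured probe against that at the brightest, for window genes with 2 or more measured probes. Points near the diagonal agree; Kazn, at 0.05 and -1.68, and Ptafr, at -0.86 and 0.32, lie farthest from it, and Kif17, at -1.04 and -1.0, lies close to it.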

How the data were processed

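Gene expression was measured on 1 array of PAD4-deficient and 1 array of WT LSK cells. Both lay on 1 slide in 1 scan. Per the file headers, the design was Agilent 014868 and the software Feature Extraction 9.5.3.1, where the submitters' processing notes give version 9.5. Spot intensity stands in the deposited scanner files on a linear scale, after the authors' background subtraction and detrending, with an error per spot. The authors' deposited table of log2 values was checked to be the log2 of the same signal minus 9.62 for the PAD4-deficient and 9.67 for the WT array, with column medians of -3.53 and -3.59. The number of arrays limits the precision.

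Control spots and outlier spots (121 on the PAD4-deficient and 98 on the WT array) were left out, which left 41170 probes, and 0 spots were saturated. Log2 signals were averaged over a probe's spots and scaled to each array's 75th percentile, 786 on the PAD4-deficient and 814 on the WT array. A gene's value came from its brightest probe in the window that was well above background on both arrays. Of the 364 gene names, 276 were matched to RefSeq GRCm38.p6 (228 by accession, 36 by symbol, 12 by synonym), all 276 on chromosome 4, and 88 kept the name in the files. Probe coordinates are mm8 as the files give them. No mm8 annotation was used, so exon or UTR positions of probes are not given.

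With 1 array per group no p-value was computed, and genes were counted at 1.5-fold and 2-fold. The members, the function and marker lists and the rules were chosen with earlier results of these data known. The named genes were those within 1 Mb of Padi4, the 10 largest differences in each direction, the 5 largest bounds in each direction, the 3 brightest members of each function list and up to 5 genes whose probes differ most; further members are named as examples after their values were seen. Alternatives were normexp (limma 3.58.1 in R 4.3.3) with an offset of 50 or none, quantile normalization, median scaling, the percentile of detected probes, loess with a span of 0.3, the deposited table, the mean over probes, other signal filters, a narrower window, agreement of probes and other distance bins. The steps were tested on simulated data. Python 3.11.15 with numpy 2.4.6, pandas 2.3.3 and scipy 1.17.1 was used. Some members of the lists and of the window are not reported here.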

Additional observations from a re-analysis of the deposited data

How the results depend on the processing

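The median difference of the window moved by less than 0.1 under every alternative run, a limit set after the main values were seen. The median sizes without sign within 1 Mb and at 5 Mb and more also stayed within that limit wherever they were rerun. They were not rerun for the narrower window or for agreement of probes, and the other medians by distance were not rerun. The window median ran between -0.06 (genes whose probes lay on the same side of 0) and 0.04 (no signal filter). The counts did change, and 1.5-fold and 2-fold genes are given as higher and lower on the PAD4-deficient array, against 4 and 12 and against 1 and 4 as reported. With normexp and an offset of 50 there were 1 and 4 at 1.5-fold, and 0 lower at 2-fold. With normexp and no offset, 2 were lower at 2-fold. Outside the window, 24 genes were lower at 2-fold with the offset and 52 with none, against 77 as reported. With genes well above background on at least 1 array, 10 were higher at 1.5-fold and 5 at 2-fold, and with no signal filter 29 and 13. These looser filters moved the share of higher among 1.5-fold calls to 40% and 61.7%, against 25% as reported and 62.2% outside the window with no filter. With a mean signal of at least 200 there were 1 and 5 at 1.5-fold and 0 and 2 at 2-fold. Between 135 and 145 Mb there were 1 and 2 at 1.5-fold and 0 and 2 at 2-fold, and among genes whose probes lay on the same side of 0 there were 0 and 2 at 1.5-fold and 0 and 1 at 2-fold. The looser filters test more genes and the other restrictions fewer; the cause of the normexp changes was not tested. Scaling did not alter the 1.5-fold counts of the window by over 1.5 times, but outside it median scaling gave 422 higher and 408 lower genes, against 485 and 309 as reported. For 64 named genes and 11 alternatives, 666 of 685 values moved by less than the scanner error, and 0 changed sign from a 1.5-fold value. No paired analysis was possible because there was 1 array per group, and no replicate could be left out. Signal over background limits the dim genes, which hold most of the calls.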
